A study of Marmota monax with 7 samples.

Results

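The proteasome genes described here are PSMA1, PSMA5, PSMB7, PSMD6 and PSME3. They were taken as every probe whose annotated symbol is exactly 1 of these names, which gave 5 probes, 1 for each gene, out of 5544 probes on the array. They are a choice within 21 measured proteasome genes, selected on their signals and slopes with amount on these same arrays, so the values of the 5 are a description with no test.

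The proteasome is the barrel-shaped protease that breaks down proteins marked with ubiquitin. Its core stacks rings of alpha subunits, which gate the entrance, on rings of beta subunits, some of which hold the cutting sites, and regulatory particles or activators dock on the ends of the barrel. In liver it turns over short-lived and misfolded proteins and supplies peptides for antigen presentation. PSMA1 and PSMA5 encode alpha subunits. PSMB7 encodes the beta subunit with trypsin-like activity. PSMD6 encodes a subunit of the lid of the regulatory particle. PSME3 encodes an activator found mainly in the nucleus that works without ubiquitin.

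Total RNA from normal liver of adult woodchuck (Marmota monax), a rodent, was put on membrane arrays built for human genes. Each of 7 arrays received its own amount, 0.1, 0.25, 0.5, 1, 2, 5 or 10 µg, to see how the amount affects signal intensity in a hybridisation across species. No strain, treatment or age beyond adult is given, and the labels name 1 lot. Nothing in them says whether the arrays shared 1 RNA preparation, so each spread given here is the scatter of 7 arrays about a line.

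The woodchuck gene table holds 1 protein-coding gene under each of the 5 symbols. The names of the probes are those of the human annotation: PSMA1 is probe 1253 (Entrez gene 5682), PSMA5 probe 1822 (5686), PSMB7 probe 319 (5695), PSMD6 probe 3 (9861) and PSME3 probe 1979 (10197). Probes with the same sequence accession did not share their brightness. Over 117 such pairs the percentiles of mean signal, ranked apart within the lower and upper numbered probes, had a Spearman correlation of -0.0554. That value is a description over pairs that share the arrays. The match of annotated names to probes may therefore be off, and each value given under a gene's name rests on it. The 5 members have 1 probe each, so no signal below could be set against a second probe of its gene. Of 14 hepatocyte markers 8 were measured, and 6 of these lay above the array median at 10 µg, among them APOB at a percentile of 99.4, while TF and AHSG lay below it. Of 10 markers of bile duct, endothelium, lymphocytes, macrophages and red cells, 6 were measured and 4 lay above that median.

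The background of an array was taken as its 1st percentile, the signal that 1% of probes fall under. It was 1329 at 0.1 µg and 3550 at 10 µg, and the array median was 1629 and 16151.5. All signals are intensities on a linear scale in the scanner's unknown unit. A brighter probe is not taken to mean a more abundant transcript.

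The 2 alpha-ring probes were bright on each array. PSMA5 read 29393 at 0.1 µg, 60030 at 0.25, 215253 at 0.5, 480876 at 1, 1944410 at 2, 11756000 at 5 and 10700000 at 10 µg. The value at 10 µg was 364-fold that at 0.1 µg for a 100-fold difference in RNA, and 5 µg gave the highest signal of the 7. PSMA5 ranked between 2 and 14 among all probes of each array. PSMA1 read 16277, 31270, 99122, 219740, 707039, 5272831 and 4423521 in the same order of amounts. It too was highest at 5 µg, and its value at 10 µg was 272-fold that at 0.1 µg. Its rank lay between 45 and 82.

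PSMB7, from the beta ring, read 18961, 27148, 86216, 217011, 676927, 3769496 and 3720651 from 0.1 to 10 µg. Its signals at 5 and 10 µg stood in a ratio of 0.987, and its difference from 0.1 to 10 µg was 196-fold. PSME3, the activator, read 13089, 30301, 67879, 237929, 566612, 3287011 and 4143759. Its highest signal was at 10 µg, 317-fold that at 0.1 µg. The ranks of PSMB7 lay between 52 and 103 and those of PSME3 between 72 and 116.

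PSMD6, the lid subunit, was far closer to background. It read 1949 at 0.1 µg, 1813 at 0.25, 3682 at 0.5, 5386 at 1, 11350 at 2, 73992 at 5 and 94970 at 10 µg. The array of 0.25 µg was thus the lowest, where the probe stood at 1.01 times the array median and at a percentile of 51.3. On the other 6 arrays its percentile lay between 80.8 and 85.2. The background made up 68.2% of its signal at 0.1 µg, 76.0% at 0.25 µg, 18.8% at 2 µg and 3.74% at 10 µg. For the other 4 members that share was at most 10.2%, reached by PSME3 at 0.1 µg.

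**Figure D1:**
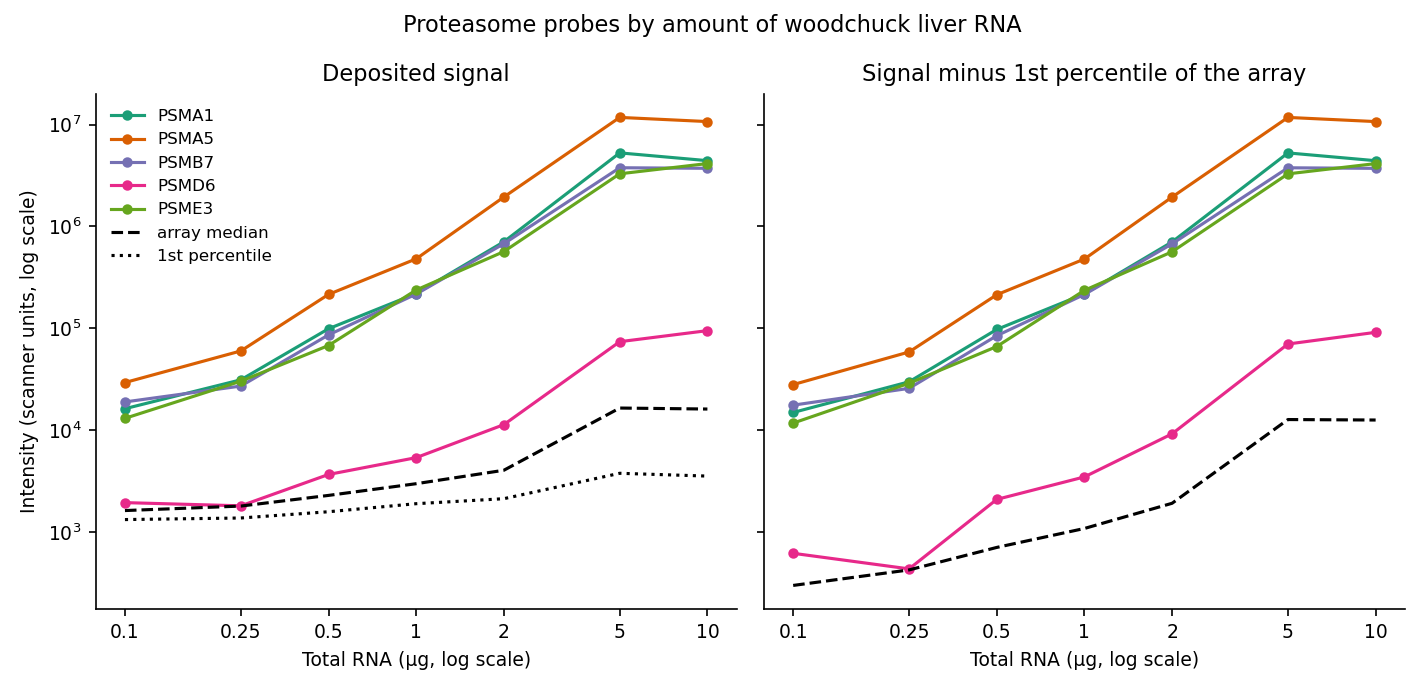
Intensity of the 5 probes (log scale, scanner units) against total RNA (µg, log scale), as deposited on the left and after subtraction of the 1st percentile of each array on the right, with 1 array at each amount. The dashed line is the array median (on the right also less the 1st percentile) and the dotted line the 1st percentile; PSMD6 meets the median at 0.25 µg, while the other 4 stay far above it.

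Subtraction of the 1st percentile altered PSMD6 and left the 4 bright members nearly as they were. After it PSMD6 read 620 at 0.1 µg, 436 at 0.25, 2096 at 0.5, 3484 at 1, 9221 at 2, 70210 at 5 and 91420 at 10 µg. Its difference between 0.1 and 10 µg was 48.7-fold before and 147-fold after. For PSMA5 the subtracted difference was 381-fold, for PSME3 352-fold, for PSMA1 296-fold and for PSMB7 211-fold. None of the 35 member values fell to 0 or below, nor to the floor of 10 units used for other probes.

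Straight lines fitted to log2 signal against log2 amount gave slopes in log2 units per doubling of RNA, where 1 means signal in proportion to RNA. Without subtraction the slope of PSMA5 was 1.44 ± 0.10 (SE over 7 arrays, as for each slope here unless stated). It was 1.37 ± 0.11 for PSMA1, 1.36 ± 0.07 for PSME3, 1.31 ± 0.10 for PSMB7 and 0.95 ± 0.13 for PSMD6. With subtraction these became 1.44 ± 0.10, 1.39 ± 0.11, 1.38 ± 0.07, 1.32 ± 0.10 and 1.25 ± 0.15. PSMD6 therefore went from below 1 to above 1, and its distance from the 4 others narrowed. The median of the 5 slopes was 1.36 without and 1.38 with subtraction, against 0.57 and 0.97 over all 5544 probes.

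The slope of PSMD6 also depended on which amounts were fitted. Over 0.1 to 2 µg alone it was 0.61 ± 0.13 without subtraction and 0.99 ± 0.23 with it (SE over 5 arrays). Over the same 5 arrays the other members had slopes of 1.24 (PSMB7) to 1.41 (PSMA5) without subtraction and 1.26 to 1.42 with it. The medians over all probes were also lower on these 5 arrays, at 0.32 and 0.74 against 0.57 and 0.97 on all 7.

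Probes of like brightness had like slopes. When all probes were ranked on mean signal in 10 classes, PSMD6 fell in class 9, where the median slope was 0.95 without and 1.23 with subtraction. Over 0.1 to 2 µg alone the medians of class 9 were 0.68 and 1.05. The other 4 members fell in class 10, the brightest, with medians of 1.28 and 1.34. Over the 100 brightest probes the medians were 1.36 and 1.37. This ranking shares its arrays with the slopes, and the part of brightness in the members' slopes was not tested.

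**Figure D2:**
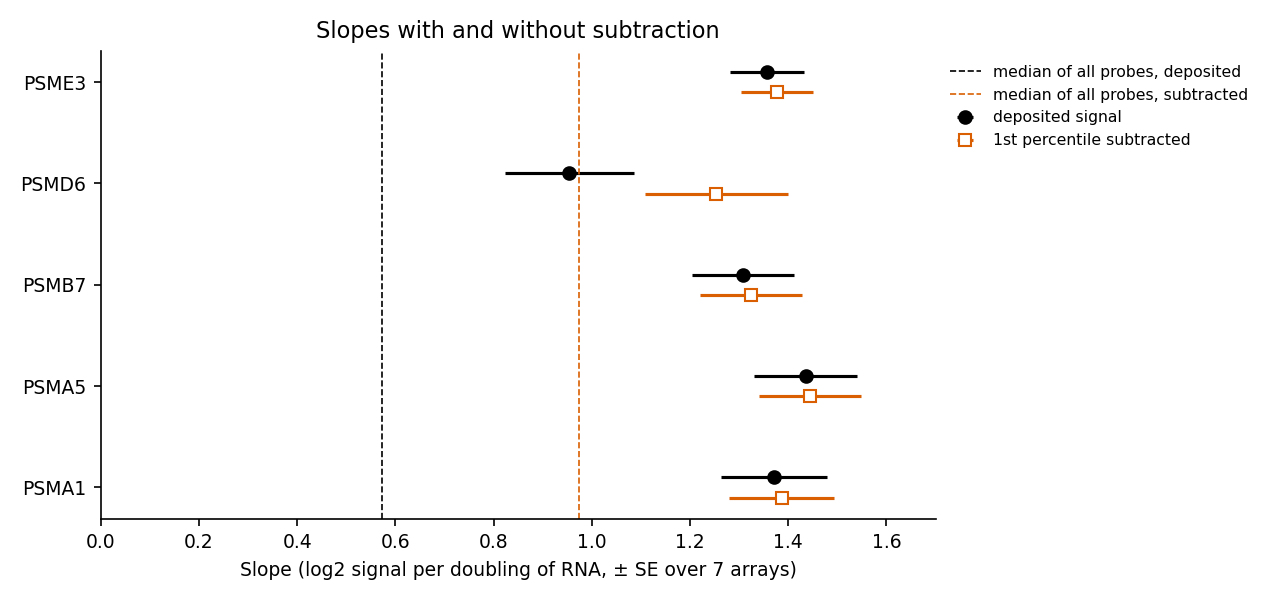
Slope of each member (log2 signal per doubling of RNA) with its SE over 7 arrays, from deposited signals (filled circles) and after subtraction of the 1st percentile (open squares). Dashed lines mark the medians of all probes, 0.57 and 0.97; PSMD6 is the member that moves, from 0.95 to 1.25.

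The signal left after subtraction was also divided by the amount, which would give 1 constant value for a probe in exact proportion. For all 5 members the lowest value was at 0.25 µg and the highest at 5 µg. PSMA5 gave 280640 units per µg at 0.1 µg, 234612 at 0.25, 427334 at 0.5, 478974 at 1, 971140 at 2, 2350444 at 5 and 1069645 at 10 µg. Its highest value was 10.0 times its lowest. The same ratio was 8.81 for PSMA1, 8.05 for PSMD6, 7.31 for PSMB7 and 5.68 for PSME3. The 99th percentile of the array, treated in the same way, had its lowest and highest values at the same 2 amounts, in a ratio of 6.57. The array median did not share this course. Its lowest value was at 2 µg and its highest at 0.1 µg, in a ratio of 3.12.

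The steps between successive arrays separated the members more than their slopes did. From 0.1 to 0.25 µg, a 2.5-fold difference in RNA, PSME3 read 2.32-fold higher, PSMA5 2.04-fold, PSMA1 1.92-fold and PSMB7 1.43-fold, while PSMD6 stood at 0.930 of its former signal. After subtraction that last ratio was 0.703. The median step of all probes was 1.12-fold and that of the brightest 10% 1.74-fold.

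From 0.25 to 0.5 µg the steps were 3.59-fold for PSMA5, 3.18-fold for PSMB7, 3.17-fold for PSMA1, 2.24-fold for PSME3 and 2.03-fold for PSMD6, with 2.36-fold as the median of the brightest 10%. From 0.5 to 1 µg the order differed. PSME3 had the largest step at 3.51-fold, followed by PSMB7 at 2.52-fold, PSMA5 at 2.23-fold, PSMA1 at 2.22-fold and PSMD6 at 1.46-fold. From 1 to 2 µg PSMA5 led with 4.04-fold, and PSME3, at 2.38-fold, was the lowest of the bright 4. With 1 array at each amount, none of these orders has a replicate check.

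From 2 to 5 µg all 5 members had their largest unsubtracted step as a plain ratio, for 2.5-fold more RNA. PSMA1 read 7.46-fold higher, PSMD6 6.52-fold, PSMA5 6.05-fold, PSME3 5.80-fold and PSMB7 5.57-fold. Per doubling of RNA the largest step of PSMA5 was instead that from 1 to 2 µg, at 2.02 log2 units against 1.96. The brightest 10% of probes had a median of 6.28-fold, so PSMA5, PSMB7 and PSME3 lay under it. From 5 to 10 µg the members divided. PSMA1 stood at 0.839 of its signal at 5 µg, PSMA5 at 0.910 and PSMB7 at 0.987, while PSME3 read 1.26-fold and PSMD6 1.28-fold higher. The median step was 1.07-fold for all probes, 1.12-fold for the brightest 10% of probes and 0.942 for the other proteasome genes. Among the core-ring genes outside the 5 members PSMB10 (2.24-fold), PSMB3 (1.23-fold) and PSMB6 (1.10-fold) read higher at 10 than at 5 µg, and PSMA3 (0.920), PSMA6 (0.794) and PSMA2 (0.309) lower. Among the genes of other roles PSME1 (2.88-fold), PSMD5 (1.76-fold), PSMD14 (1.23-fold) and PSMD12 (14232 at 5 µg, 21344 at 10 µg) read higher. The activator PSME4 (0.763), the lid subunit SEM1 (0.541), PSMD2 (0.964), PSMD9 (0.71), ADRM1 (0.682) and POMP (0.756) read lower. Core and other roles each held genes of both directions. The members' division between core and other roles was thus not seen over the other genes. Each of these steps rests on 1 pair of arrays.

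**Figure D3:**
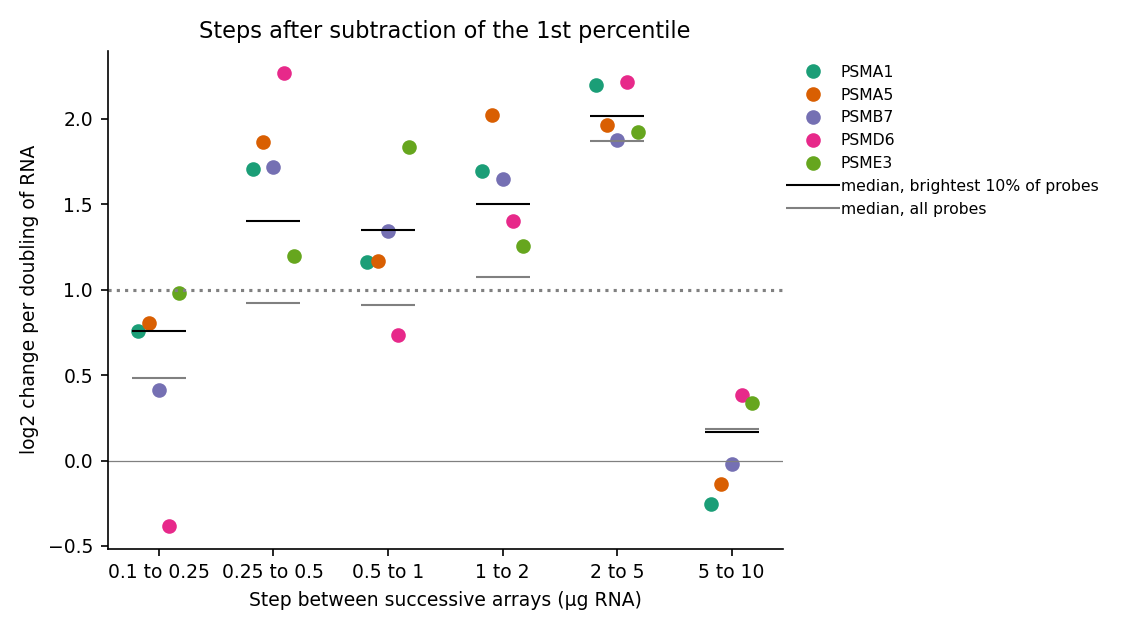
Change of each member between successive arrays after subtraction of the 1st percentile, in log2 units per doubling of RNA (1, dotted, is proportion), with the medians of all probes and of the brightest 10% as bars and 1 array at each amount. PSMD6 lies lowest from 0.1 to 0.25 µg, all 5 lie above 1 from 2 to 5 µg, and PSMA1, PSMA5 and PSMB7 lie below 0 from 5 to 10 µg.

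The bright members were also set against the bright end of their own array. PSMA1 lay between 0.815 and 1.15 times the array's 99th percentile on the 7 arrays, PSMB7 between 0.748 and 1.04, and PSME3 between 0.695 and 0.883. PSMA5 lay between 1.62 and 2.56, the widest of these 4 ranges. The slopes of these ratios on amount were 0.02 ± 0.03 for PSMA1, 0.01 ± 0.03 for PSME3, -0.04 ± 0.02 for PSMB7 and 0.09 ± 0.03 for PSMA5. PSMD6 stood at 0.107 at 0.1 µg, 0.0139 at 2 µg and 0.0192 at 10 µg, with a slope of -0.40 ± 0.10. The median of such slopes was -0.40 in brightness class 9, that of PSMD6. It was 0.006 over the 100 brightest probes and -0.78 over all probes.

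**Figure D4:**
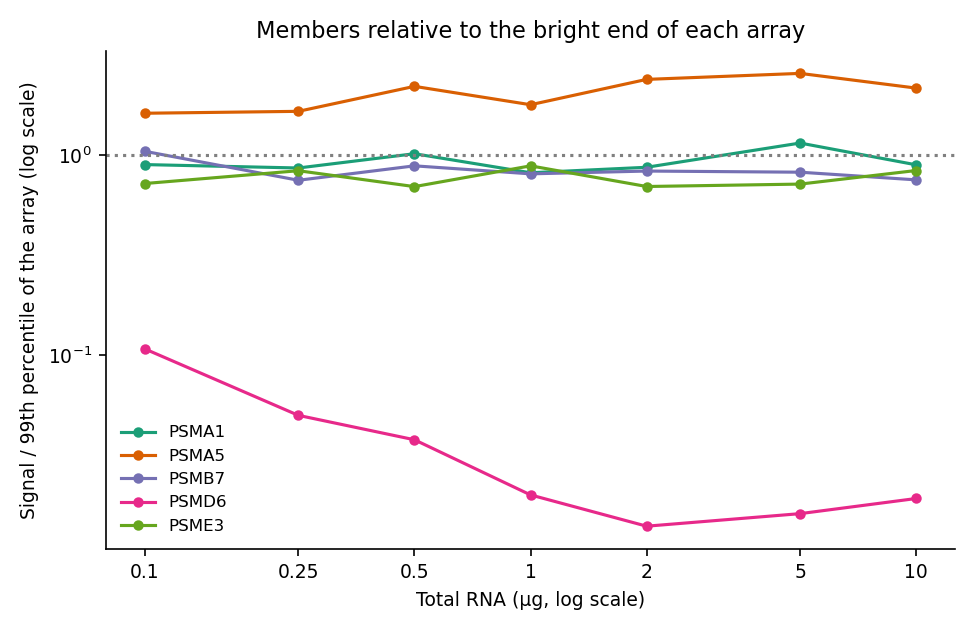
Signal of each member divided by the 99th percentile of its array (log scale) against total RNA (µg, log scale), with 1 array at each amount. PSMA1, PSMB7 and PSME3 lie between 0.695 and 1.15 (the dotted line is 1), PSMA5 between 1.62 and 2.56, and PSMD6 runs from 0.107 at 0.1 µg to 0.0139 at 2 µg.

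The genes of most similar pattern were those whose log2 signals, each centred on its own mean, differed least from a member over the 7 arrays. The measure is the root mean square difference, over 3345 probes with 1 symbol of other genes. For PSME3 the closest were UMPS (0.056 log2 units), TUFM (0.066) and APOB (0.096). For PSMA1 they were IMPA1 (0.062), RETREG3 (0.090) and THOC1 (0.10), and for PSMB7 LRP6 (0.091), TNFRSF25 (0.099) and MMP9 (0.10). For PSMA5 they were NR4A3 (0.15), RYBP (0.16) and FBXO34 (0.16). For PSMD6 they were SERPINA7 (0.11), PPIP5K1 (0.15) and IDH3A (0.16). These are the closest of 3345 by choice. The median difference over all 5543 other probes, with or without a symbol, was 1.97 for PSMA5, 1.81 for PSMA1, 1.78 for PSME3, 1.69 for PSMB7 and 0.96 for PSMD6. Between members it ran from 0.19 (PSMA1 and PSMA5) to 1.18 (PSMA5 and PSMD6). After subtraction of the 1st percentile (an alternative added once the data had been seen), 0 of the 3 genes named for PSMD6 stayed among its closest 3. Of those named for PSMA5, PSMB7 and PSME3 2 each stayed, and of those for PSMA1 1.

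Of the 52 genes in a list of proteasome subunits, activators, inhibitor and assembly factors, 21 were measured by a probe of their own, and 16 of these are not among the 5. Without scaling all 16 rose with the amount (limma, Benjamini-Hochberg adjusted p of at most 0.00601), as did 99.9% of all genes, so that count says nothing particular of them. Relative to the median of each array 8 of the 16 rose, 2 fell and 6 did not pass (limma, adjusted p under 0.05). Over all 3011 genes 38.5% rose and 26.6% fell, and no test of the difference was made. Their median slope relative to the array median was 0.18, against 0.05 over all genes and 0.79 over the 5 members. With the 75th percentile in place of the median, 5 of the 16 rose and 7 fell (17.3% and 53.1% of all genes), while the median slope of all genes went from 0.05 to -0.17.

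Other scalings altered these counts. After division by the median absolute deviation of each array, 0 of the 16 rose and 0 fell by limma (1 and 2 at an unadjusted p under 0.05), where 0.0996% and 7.44% of all genes did. The slopes of 4 members were then negative, from -1.02 for PSME3 to -1.41 for PSMA5, and that of PSMD6 was 0.036. This scaling divides the centred log2 signals of each array by that array's own spread. Its slopes are therefore not on the scale of the others, and a negative one is not a signal that falls with amount. The lower and upper quartiles were 1509 and 1813 at 0.1 µg, and 7753.5 and 41363.75 at 10 µg. Under quantile normalisation 0 rose and 0 fell by limma (1 each unadjusted), where 0% of all genes passed. When the lower and upper numbered probes, 2 equal parts, were centred apart, 7 of the 16 rose and 3 fell (34.9% and 23.5% of all genes). After subtraction of the 1st percentile and median centring 5 rose, where 19.9% of all genes did.

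Among the other activators, PSME1, a partner of the interferon-induced activator ring, read 2141 at 0.1 µg and 455875 at 10 µg. Its slope relative to the array median was 0.65 ± 0.06 (limma's moderated SE over 7 arrays, adjusted p = 3.89e-06), the steepest of the 16. PSME4, a large nuclear activator, stood at 0.57 ± 0.06 (limma adjusted p = 9.22e-06). Scaled by the median absolute deviation, PSME1 (-0.011) and PSME4 (-0.12) did not pass.

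The core rings held bright and dim probes together. Among alpha subunits PSMA2 (0.52 ± 0.10) and PSMA3 (0.27 ± 0.05) rose relative to the median and PSMA6 did not pass (-0.06 ± 0.05, limma adjusted p = 0.243). PSMA6 read 1501 at 0.1 µg and 9488 at 10 µg, below the array median on each of these arrays. Among beta subunits PSMB3 (0.42 ± 0.05) and PSMB6 (0.25 ± 0.06), which holds the caspase-like site, rose. PSMB10, which takes the place of PSMB7 in the immunoproteasome, did not pass (-0.15 ± 0.07, limma adjusted p = 0.0615), although it did, at -0.25, once the 10 µg array was left out. With the 75th percentile, or after subtraction of the 1st percentile and median centring, PSMA3 and PSMB6 did not pass, nor did PSMB6 when the lower and upper numbered probes were centred apart.

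In the regulatory particle SEM1, a small lid subunit (0.54 ± 0.07), and PSMD5, an assembly chaperone (0.34 ± 0.06), rose relative to the array median. PSMD5 did not pass with the 75th percentile (0.11) or after subtraction of the 1st percentile (0.19). PSMD14, the deubiquitinase of the lid, fell (-0.28 ± 0.07, limma adjusted p = 0.00458), as did POMP, a factor of core assembly (-0.31 ± 0.06, 0.00164). These 2 probes read 5329 and 3629 at 10 µg, against a background of 3550. After subtraction of the 1st percentile and median centring 0 of the 16 genes fell by limma (1 at an unadjusted p under 0.05), where 5.58% of all genes did. With both 5 and 10 µg left out the count of falls was also 0 (1 unadjusted), against 4.05% of all genes. A filter on dim probes removed both genes, and 0 of the 12 left fell (1 unadjusted), against 16.9% of all genes. PSMD9 (0.10 ± 0.05), PSMD12 (0.01 ± 0.05), ADRM1, a ubiquitin receptor (0.03 ± 0.05), and PSMD2, a scaffold of the base (-0.10 ± 0.04), did not pass. With the 75th percentile PSMB10 (-0.38), PSMD2 (-0.32), PSMA6 (-0.29), PSMD12 (-0.22) and ADRM1 (-0.20) fell by limma, as did PSMD2 (-0.21) when the lower and upper numbered probes were centred apart.

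PSMD2 was the single proteasome gene with more than 1 probe, and its 3 probes were all dim. At 10 µg they read 9058, 8450 and 3690, at percentiles of 31.2, 28.5 and 1.43. The last 2 of these share a sequence accession, and at 0.1 µg they read 1539 and 1691, in the opposite order. All 3 readings at 10 µg lay below the array median.

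The slopes relative to the array median were also set beside the medians of the brightness classes. Slope and brightness come from the same 7 signals of a probe, and a relation between them was not tested. Of the 16 genes 8 lay above the median of their class and 8 below, by at most 0.16, and 6 were within 1 SE of it. PSME4 lay 0.15 log2 units under its class median of 0.72 (plain SE 0.06), and PSMA3 0.12 under its own of 0.38 (SE 0.04). As a description, PSMD6 stood at 0.39 ± 0.05 in a class of median 0.38. The other members' class had a median of 0.72, with PSMB7 at 0.74 ± 0.08 and PSMA5 at 0.87 ± 0.10. Class 10 spans a wide range of brightness, and the median over the 100 brightest probes was 0.79.

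**Figure D5:**
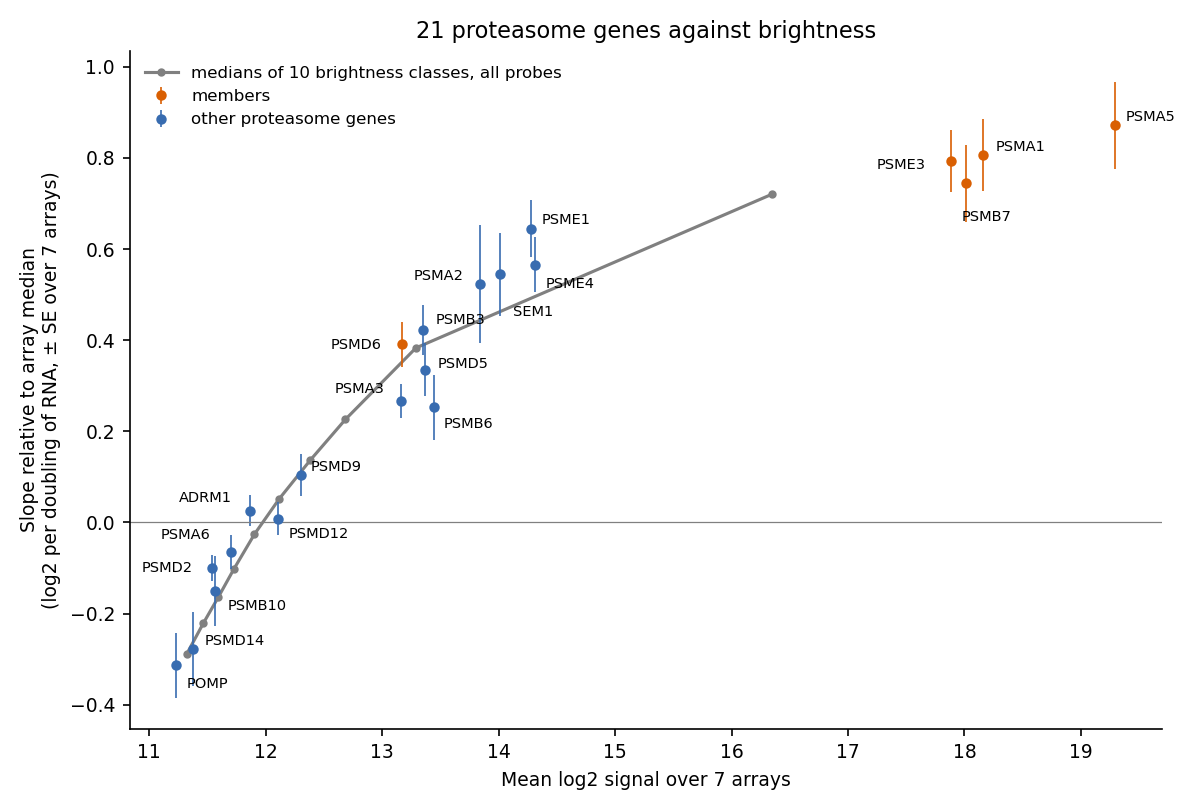
Slope relative to the array median (log2 units per doubling of RNA, with the SE over 7 arrays) against mean log2 signal for 21 proteasome genes, with the medians of 10 brightness classes of all probes in grey. Slopes run from POMP at -0.31 to PSMA5 at 0.87, and 6 of the 16 genes outside the 5 members lie within 1 SE of their class median. With division by the median absolute deviation, which gives a scale other than the one plotted, the slopes of PSMA1, PSMA5, PSMB7 and PSME3 were negative. So were those of 7 of the 8 rising genes outside the members.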

How the data were processed

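Per the labels, the deposited values measure signal intensity. They were whole positive numbers on a linear scale. The scanner, and any background correction or scaling by the authors, are not given in the sources used here. Symbols came from the platform annotation (3346 probes with 1 symbol, 95 with several), and a gene with several probes was represented by the brightest by mean log2 signal. The members and lists were chosen with earlier results of these data known.

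The 1st percentile of each array was subtracted, with a floor of 10 units, before log2. Least-squares lines of log2 signal on log2 amount gave the members' slopes with plain SEs. For other genes limma 3.58.1 in R 4.3.3 was fitted over all 5544 probes, without scaling and after subtraction of each array's median, with Benjamini-Hochberg adjustment at 0.05; limma's p-values borrow variance from probes on the same 7 arrays. The slope fit was tried on simulated data with known slopes and noise drawn independently for each probe. Such data lack deviations shared by the probes of an array, so they do not check the p-values given here. Python 3.11.15, numpy 2.4.6 and pandas 2.3.3 did the rest. Named were the members, any measured proteasome gene, the 3 most similar genes of each member, the 2 steepest and 2 shallowest ubiquitin genes, and the neighbours in probe number. Members carry no test, and the counts of rises and falls given for proteasome genes leave them out. Alternatives covered scaling, background, floor, dim probes, variance trend and left-out arrays. The number of arrays limits the precision.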

Additional observations from a re-analysis of the deposited data

How the results depend on the processing

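Without scaling, the members' median slope moved by less than the median of their SEs under each alternative of arrays, amounts, background and floor. When 1 array was left out it lay between 1.27 and 1.43 without subtraction and between 1.29 and 1.47 with it. Relative to the array median the members' median slope was 0.79. It became 0.57 with the 75th percentile, 0.018 with quantile normalisation and -1.11 with the median absolute deviation. The last value is on another scale, because each array is divided by its own spread. Of the 16 proteasome genes outside the members (counted apart as a choice made after the data were seen), 8 rose with any 1 array left out. The share of all genes is not given for those fits, and was 38.5% with all 7 arrays. With the 75th percentile 5 rose (17.3% of all genes), and after subtraction of the 1st percentile 5 (19.9%). With the median absolute deviation (0.0996%) and quantile normalisation (0%) 0 rose (limma, 1 unadjusted each). Falls numbered 2 to 3 with 1 array left out (26.6% of all genes with all 7 arrays) and 7 with the 75th percentile (53.1%). With the median absolute deviation they numbered 0 (limma, 2 unadjusted), where 7.44% of all genes fell. They were also 0 with quantile normalisation (0%), after subtraction (5.58%), with a filter on dim probes (16.9%) and without 5 and 10 µg (4.05%) (limma, 1 unadjusted each). No count of rises or falls over all 21 is given, because the members' part in it would follow from their choice. The filter removed 4 genes; otherwise the cause was not tested. Of the members and the genes that rose, slopes turned negative with the median absolute deviation for PSMA5 (-1.41), PSMB7 (-1.15), PSMA1 (-1.11), PSME3 (-1.02), PSMB6 (-0.13), PSME4 (-0.12), PSMD5 (-0.11), PSMA3 (-0.046), PSME1 (-0.011), SEM1 (-0.0090) and PSMB3 (-0.0067). With quantile normalisation they did for PSMB6 (-0.16), PSMD5 (-0.12), PSMA3 (-0.043), PSMB7 (-0.040) and PSME4 (-0.018). Among genes that had not passed, PSMD12 turned negative under both (-0.024 and -0.042) and PSMD9 with quantile normalisation (-0.0037), while PSMA6 (0.056 and 0.081) and PSMD2 (0.062 and 0.078) turned positive under both. No paired analysis was possible because each amount had 1 array.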

Other observations

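The ubiquitin pathway that feeds the proteasome was measured through 14 of 49 listed genes. Relative to the array median 4 rose, 6 fell and 4 did not pass (limma, adjusted p under 0.05), where 38.5% of all genes rose and 26.6% fell. The median slope was -0.06 log2 units per doubling of RNA, against 0.05 over all genes, and the difference was not tested. Other scalings gave 2 rises and 9 falls with the 75th percentile (17.3% and 53.1% of all genes), 5 of each with the lower and upper numbered probes centred apart (34.9% and 23.5%), and 2 of each after the 1st percentile was subtracted, then the median (19.9% and 5.58%). With the median absolute deviation (0.0996% and 7.44%) and with quantile normalisation (0% both ways) there were 0 of each (limma, 1 unadjusted in each direction for both). Without 5 and 10 µg 4 rose and 2 fell, where 967 of all 3011 genes rose and 4.05% fell. A filter on dim probes left 9 genes, of which 4 rose and 2 fell. Of all 2388 genes left by it 1139 rose and 404 (16.9%) fell. UBE2V2, a conjugating enzyme variant that pairs with UBE2N, was the steepest (0.66 ± 0.05, limma's moderated SE over 7 arrays, adjusted p = 2.17e-06) and read 2662 at 0.1 µg and 437729 at 10 µg. UBE3B, a ubiquitin ligase, followed (0.42 ± 0.06, 0.000203). CDC34, a conjugating enzyme of cullin ligases (-0.28 ± 0.04, 0.000368), and UBE2J1, one of the endoplasmic reticulum (-0.29 ± 0.06, 0.00223), were the shallowest, at 4592 and 5762 at 10 µg.

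Proteasome probes lay side by side in the probe numbers. PSMA3 followed PSMA5, PSMB6 followed PSMA1 and PSMD9 followed PSMB7. These 3 neighbours stood at percentiles of 79.6, 80.8 and 59.5 at 10 µg, far below the members beside them. The 10 probes next to the members had percentiles of mean signal between 56.7 and 88.5. The sources used here do not give where probes of adjacent number lie on the membrane.

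Among the deposited values 16 were at or above 10000000, and all 16 were whole multiples of 1000, among them the signals of PSMA5 at 5 and 10 µg. These signals are therefore given to a coarser step than the rest.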
